A study of Mus musculus with 2 samples.

Results

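The 28 genes described here encode enzymes of cholesterol and fatty acid synthesis together with their main regulators, and they were chosen by symbol from the 27998 genes of the count tables. They comprise 6 enzymes of the mevalonate pathway, 11 enzymes that make squalene and turn it into sterols, 7 enzymes of fatty acid synthesis, and 4 regulators or carriers. Single-cell RNA sequencing was performed on Gli1-CreERT2; Ai9 mice of a mixed background at 1 month of age. All of the mice received tamoxifen on 3 days, so that cells expressing Gli1 at that time and their descendants were marked with tdTomato. They were then injected daily for 3 days with either vehicle or teriparatide, an active fragment of parathyroid hormone, at 400 ng per g of body weight. Cells positive for tdTomato and negative for CD31, CD45 and Ter119 were sorted from the femoral metaphysis. Each condition had 3 males and 2 females. The methods of the study speak of a matrix for every mouse, but the data analysed here hold 1 count table per condition that names no mouse, so that each condition was a single sample without replicates. Each 95% interval below therefore covers counting error only, and no difference between the conditions could be tested.

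Cholesterol synthesis begins when acetyl-CoA is condensed to HMG-CoA, which is reduced to mevalonate and built up through isoprenoid units to squalene. Squalene is then closed to lanosterol and trimmed in further steps to cholesterol. Fatty acid synthesis draws on the same acetyl-CoA, and both routes are driven by the SREBP transcription factors, which are held in the endoplasmic reticulum by INSIG proteins while sterols are plentiful. In growth plate cartilage, cholesterol also modifies Hedgehog ligands, and inborn defects of several of these enzymes cause skeletal malformations.

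To show what these genes share in sequence, their promoters were read from a RefSeq table for GRCm38.p6, as windows from 250 bases before to 50 bases after the start. A window was found for 22 of the 28 genes. The CCAAT box, searched as CCAAT on both strands, was present in 20 of the 22 genes (90.9%), against 41.1% of all 27025 genes of the table and 42.3% of the 7054 genes that also had at least 50 counted molecules in the cartilage-like cells described below. The GC box, searched as GGGCGG on both strands, was present in 18 genes (81.8%), against 38.2% of all genes and 73.1% of those with at least 50 molecules. The E-box CACGTG was found in 4 genes (18.2%), against 8.09% and 12.6%. The sterol regulatory element, searched as TCACNCCAC, was found in 1 gene (4.55%), Hmgcs1, against 1.44% and 1.30%. Each motif was searched on its own, so that matches of different motifs, and neighboring GC boxes, may overlap, and a match is a description of the letters only. The promoters of Insig1 (chr5:28071162-28071461, plus strand), Idi1 (chr13:8885356-8885655, plus strand), Cyp51 (chr5:4104648-4104947, minus strand) and Msmo1 (chr8:64733529-64733828, minus strand) are printed because these genes were among those that differed most between the libraries, and that of Hmgcs1 (chr13:119690101-119690400, plus strand) because its level hardly differed. Each is written along the strand of its gene, with CCAAT boxes in either direction and the sterol regulatory element in capitals.
Insig1: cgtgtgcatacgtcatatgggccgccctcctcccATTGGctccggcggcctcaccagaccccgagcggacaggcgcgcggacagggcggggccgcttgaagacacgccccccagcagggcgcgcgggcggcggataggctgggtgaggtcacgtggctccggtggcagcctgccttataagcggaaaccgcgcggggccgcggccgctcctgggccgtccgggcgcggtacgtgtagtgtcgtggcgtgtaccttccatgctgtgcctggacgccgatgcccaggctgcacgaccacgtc
Idi1: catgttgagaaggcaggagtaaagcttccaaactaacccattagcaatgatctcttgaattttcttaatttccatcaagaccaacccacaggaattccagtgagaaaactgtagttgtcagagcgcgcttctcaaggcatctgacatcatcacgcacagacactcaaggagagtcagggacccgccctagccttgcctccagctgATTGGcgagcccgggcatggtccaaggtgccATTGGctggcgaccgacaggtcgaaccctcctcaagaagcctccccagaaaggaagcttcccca
Cyp51: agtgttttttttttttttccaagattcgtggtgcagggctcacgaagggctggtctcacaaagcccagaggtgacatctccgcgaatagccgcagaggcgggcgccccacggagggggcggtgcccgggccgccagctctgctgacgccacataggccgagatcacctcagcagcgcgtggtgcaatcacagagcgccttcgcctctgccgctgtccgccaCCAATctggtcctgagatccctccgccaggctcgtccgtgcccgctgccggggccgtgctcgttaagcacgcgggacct
Msmo1: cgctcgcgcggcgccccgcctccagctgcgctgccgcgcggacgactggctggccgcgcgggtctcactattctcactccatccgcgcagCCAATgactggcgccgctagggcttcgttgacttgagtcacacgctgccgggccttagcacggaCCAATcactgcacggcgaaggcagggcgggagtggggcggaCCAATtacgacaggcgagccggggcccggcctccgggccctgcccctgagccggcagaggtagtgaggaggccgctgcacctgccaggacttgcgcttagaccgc
Hmgcs1: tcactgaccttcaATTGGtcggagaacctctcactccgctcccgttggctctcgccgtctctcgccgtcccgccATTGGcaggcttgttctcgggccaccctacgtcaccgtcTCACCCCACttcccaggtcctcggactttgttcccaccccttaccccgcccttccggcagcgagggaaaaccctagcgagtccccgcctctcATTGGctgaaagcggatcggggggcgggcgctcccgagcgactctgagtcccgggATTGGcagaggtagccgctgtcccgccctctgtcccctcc
Hmgcs1 held 4 CCAAT boxes besides the sterol regulatory element, Msmo1 held 3, Idi1 held 2, and Insig1 and Cyp51 held 1 each. The CCAAT box was present in all 5 of the printed promoters, as in 20 of the 22 genes with a window. These 5 therefore cannot show whether the box goes with a difference between the libraries.

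Cells were assigned to classes from marker genes and are called by class with the suffix "-like". The COP-like class (chondrocyte-like osteoprogenitors) held 64 vehicle and 251 teriparatide cells, the MALP-like class (marrow adipogenic lineage progenitors) 169 and 87, the preOB-like class (preosteoblasts) 19 and 35, and the OB-like class (osteoblasts) 114 and 114. The labels call the sorted cells metaphyseal mesenchymal progenitors, yet classes with blood cell markers remained after the sort and held 116 of 549 vehicle and 608 of 1217 teriparatide cells. The COP-like cells carried their defining cartilage transcripts, with Sox9 at 839 CPM under vehicle and 1051 CPM under teriparatide and Col2a1 at 40558 and 42562 CPM, where values are given in this order throughout and CPM is the number of molecules, counted as unique molecular identifiers (UMIs), per 1000000 UMIs of the class. The median COP-like cell held 29102 and 31074 UMIs, against 11070 to 13498 in the other 3 mesenchymal classes of the vehicle library and 13587 to 19820 in those of the teriparatide library. Cells with a sex call were male in 85.2% and 91.7% of the COP-like class, but in 47.8% and 89.2% of the MALP-like, 20.0% and 89.3% of the preOB-like and 38.0% and 90.9% of the OB-like class. Of all kept cells, 1 barcode was shared between the libraries.

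Among the 4 mesenchymal classes, most of the synthesis genes were highest in the COP-like cells. The cells high in Col10a1, a marker of hypertrophic chondrocytes, were set apart from these classes. In those 7 and 27 cells the sterol enzymes stood at 1800 and 778 CPM, against 1051 and 675 CPM in the COP-like cells. The fatty acid enzymes stood lower in them than in the COP-like cells. In each library, every gene with at least 50 UMIs over the 4 mesenchymal classes was compared between the COP-like cells and the sum of the other 3 classes, and a difference of at least 1.5-fold was counted. Of the 24 synthesis genes that could be compared in the vehicle library, 21 were higher in the COP-like cells, where 19.1% of all genes were, and of the 27 in the teriparatide library 23 were higher, where 21.3% of all genes were. The same 21 genes were higher in both libraries. Over all the synthesis genes compared, the median log2 ratio was 1.94 and 1.62, against -0.08 and -0.07 for all genes. The exceptions were Mvk and Acaca, which stayed within 1.5-fold in both libraries, Acss2, which did so in the teriparatide library, and Ebp. Ebp, the sterol isomerase of the late pathway, was lower in the COP-like class in both libraries, as 26.2% and 26.3% of all genes were. It stood at 36.3 CPM (27.99 to 46.2) and 36.1 CPM (32.0 to 40.6) there, against 82.0 and 70.1 CPM in the other 3 classes together.

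Elovl6 and Srebf1 were among the genes with the widest gaps between classes. Elovl6, which elongates palmitate, stood at 88.7 CPM (75.5 to 103.6) in the vehicle COP-like cells and at 5.35 CPM in the other 3 classes together. In the teriparatide library it stood at 81.1 CPM (74.8 to 87.7) and 7.62 CPM, so that the COP-like level was 16.6-fold and 10.6-fold higher. Srebf1, which encodes the SREBP that favors fatty acid synthesis, stood at 209 CPM (188 to 231) against 19.8 CPM under vehicle and at 170.2 CPM (161 to 179.7) against 23.5 CPM under teriparatide. Idi1, the isomerase of isoprenoid units, was 9.71-fold higher in the COP-like class under vehicle and 5.52-fold higher under teriparatide. Stard4, a sterol carrier, was 5.01-fold and 11.9-fold higher. These values place the COP-like cells of both libraries far above the other mesenchymal classes for each of these genes. As a check against RNA free in the suspension, Insig1 was seen in 81.2% (69.5 to 89.9) and 64.9% (58.7 to 70.8) of the COP-like cells and in 4.44% (0.543 to 15.1) and 7.14% (3.75 to 12.1) of erythroid-like cells, with median depths of 9999 and 10342 UMIs. When every cell was thinned to 3000 UMIs, the shares were 31.7% and 14.1% in the COP-like and 3.12% and 2.22% in the erythroid-like cells. These shares cover Insig1 only and are not given for Elovl6, Srebf1, Idi1 and Stard4. Set against erythroid-like cells, they do not bear on the gap between the mesenchymal classes.

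In the other classes the synthesis genes stood lower, and again Ebp ran against the rest. In the MALP-like cells, 13 of 24 genes under vehicle and 19 of 27 under teriparatide were at least 1.5-fold below the other 3 classes. The shares of all genes below were 13.8% and 16.8%, and 12 synthesis genes were below in both libraries. Above were 1 and 3 genes, with only Ebp in both libraries, where 44.4% and 44.9% of all genes were above. In the preOB-like cells, 19 of 24 and 20 of 27 were below, 15 of them in both libraries, with 22.1% and 19.9% of all genes below. Above were 2 and 1, with Ebp in both libraries, where 18.0% and 23.6% of all genes were above. In the OB-like cells, 20 of 24 and 24 of 27 were below, 19 of them in both libraries, with 56.1% and 45.7% of all genes below. None was above, where 6.87% and 9.33% of all genes were. Because the COP-like cells were part of each comparison, these counts are not independent of the previous ones. Ranked over the 4 classes without a minimum of UMIs, 22 genes were highest in the COP-like cells of both libraries. The share of all genes so ranked is not given here, so that this rank is a description only. Tm7sf2 and Acss2 were highest in the MALP-like cells of both, at 4.80 and 4.22 CPM and at 7.47 and 8.44 CPM, but their intervals overlapped those of the COP-like cells. Ebp was highest in vehicle MALP-like cells (107 CPM, 92.4 to 123) and in the preOB-like cells of the teriparatide library (96.8 CPM, 74.9 to 123), next to 91.2 CPM (74.8 to 110.1) in the MALP-like cells. Levels of Mvk, Nsdhl and Acaca did not rank the classes alike in the libraries.

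**Figure D1:**
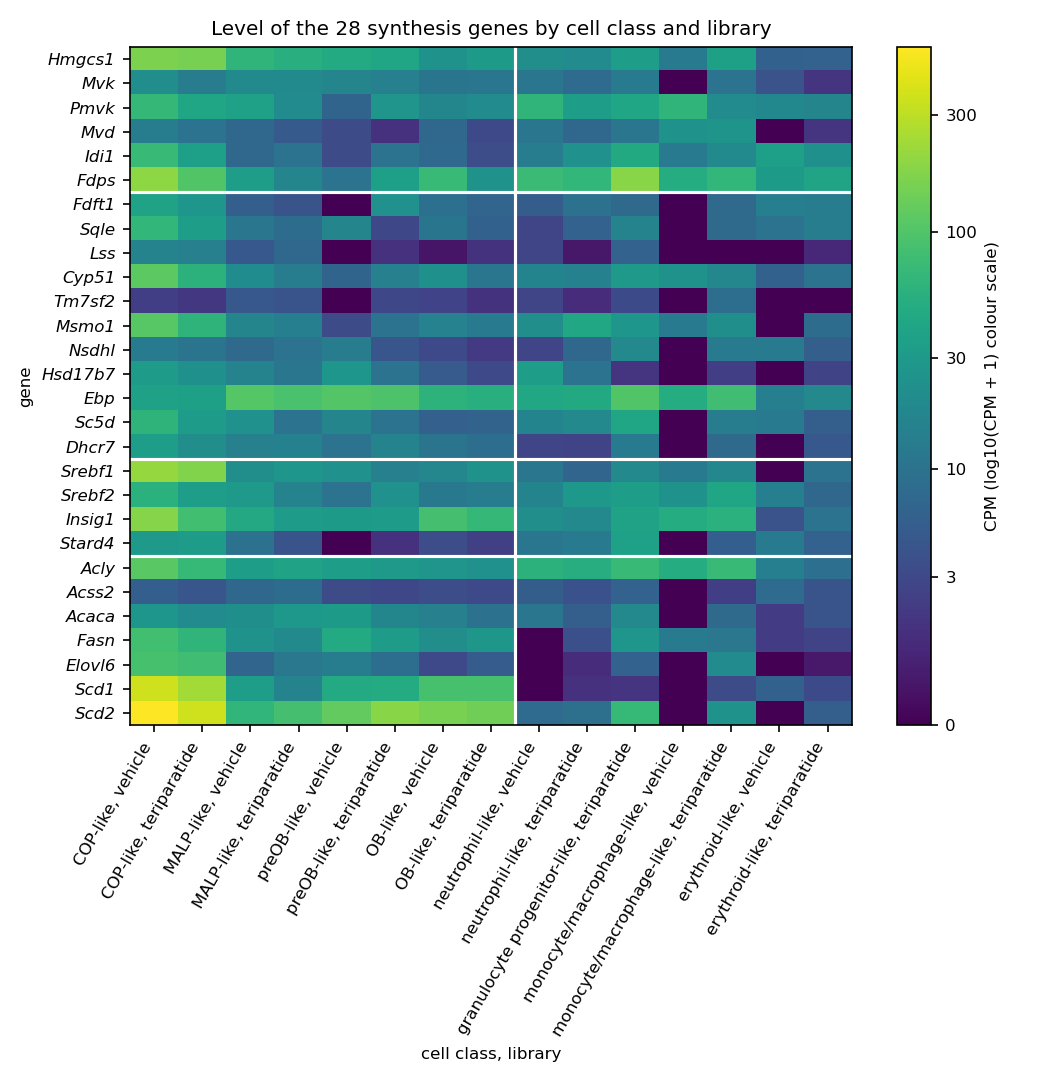
Level of each of the 28 genes (rows, ordered by role with white lines between mevalonate enzymes, squalene and sterol enzymes, regulators and carriers, and fatty acid enzymes) in the 4 mesenchymal classes (left of the white line) and 4 blood cell classes of each library (columns), as CPM on a log10(CPM + 1) color scale. Among the mesenchymal columns those of the COP-like class are the brightest for most genes, while Ebp is brightest in the MALP-like and preOB-like columns; the granulocyte progenitor-like class of the vehicle library, with 1 cell, the cells high in Col10a1 and the other Ptprc-positive cells are not shown.

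Whether the level of these genes in the COP-like cells differed after 3 days of teriparatide was examined next. Of the 26 genes with at least 50 UMIs over both libraries, 14 were at least 1.5-fold lower in the teriparatide library, where 17.4% of all 9089 genes were, and 0 were at least 1.5-fold higher, where 8.02% were. The ratio was below 1 for 67.8% of all genes and for 25 of the 26. Their median log2 ratio of teriparatide over vehicle was -0.61, against -0.21 for all genes, so that the median gene was lower as well. Counted from the median gene instead, 7 of the 26 were at least 1.5-fold lower, where 7.55% of all genes were, and 0 were higher, where 13.2% were. The 7 were Insig1, Idi1, Cyp51, Sqle, Fdps, Sc5d and Msmo1. The summed level of the 28 genes was 2766 CPM under vehicle and 1822 CPM under teriparatide, a log2 ratio of -0.60 (-0.65 to -0.56). The treatment and any difference between the mice of the 2 libraries cannot be told apart. Within the COP-like class the columnar chondrocyte marker Chad stood at 486 and 1971 CPM, and transcripts of blood cells were also higher in the teriparatide library, with S100a8 at 1.67 and 53.2 CPM and Hbb-bs at 9.48 and 42.6 CPM. Their part in the result was not tested.

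Among the mevalonate enzymes, 4 of 6 were at least 1.5-fold lower in the teriparatide library, where 17.4% of all genes were. Idi1 had 128 UMIs under vehicle and 265 under teriparatide, that is 71.4 CPM (59.6 to 84.9) and 34.7 CPM (30.6 to 39.1), a log2 ratio of -1.04 (-1.35 to -0.73). Fdps, which makes farnesyl diphosphate, stood at 193 CPM (173 to 214) and 99.9 CPM (93.0 to 107), a log2 ratio of -0.95 (-1.13 to -0.76). For either gene, intervals did not overlap between the libraries, but these intervals take no account of spread between cells. Of the vehicle UMIs, 47.7% of those of Idi1 and 47.1% of those of Fdps came from 5 of 64 cells. Without the 5 top cells of each library, a larger share of the vehicle than of the teriparatide cells, Idi1 was at -0.67. Pmvk and Mvk, the kinases of mevalonate, had log2 ratios of -0.70 (-1.002 to -0.38) and -0.64 (-1.19 to -0.06). Hmgcs1, which makes HMG-CoA at the entry of the pathway, stood apart from them at 163 CPM (145 to 183) and 155 CPM (147 to 164), a log2 ratio of -0.07 (-0.25 to 0.12). Among COP-like cells, the share with a UMI of Hmgcs1 was 76.6% and 76.9%, whereas that of Fdps was 76.6% and 53.0%. Mvd had 24 and 77 UMIs, and its log2 ratio of -0.41 (-1.09 to 0.32) was not distinguishable from no difference at this depth.

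Among the enzymes of squalene and sterol synthesis, 5 of the 10 genes with enough UMIs were at least 1.5-fold lower in the teriparatide library. The share of all genes was 17.4%. Sqle, the squalene epoxidase, stood at 65.3 CPM (54.0 to 78.2) under vehicle and 33.4 CPM (29.4 to 37.7) under teriparatide. Cyp51, the lanosterol demethylase, stood at 115 CPM (100.3 to 132) and 57.4 CPM (52.2 to 63.1), and Msmo1, a sterol C4-methyl oxidase, at 109 CPM (94.1 to 125) and 61.1 CPM (55.7 to 66.9). Their log2 ratios were -0.97, -1.01 and -0.83, and for none of the 3 did the intervals of the libraries overlap. These intervals take no account of spread between cells. Of the vehicle UMIs, 35.9% of those of Sqle, 37.2% of Cyp51 and 48.7% of Msmo1 came from 5 of 64 cells. Without the 5 top cells of each library, a larger share of the vehicle than of the teriparatide cells, Msmo1 was at -0.38, within 1.5-fold. Sc5d, the lathosterol oxidase, and Dhcr7, the last reductase of the pathway, had log2 ratios of -0.90 (-1.24 to -0.56) and -0.60 (-1.03 to -0.15). Fdft1, the squalene synthase, and Hsd17b7, a sterol ketoreductase, were at -0.49 (-0.90 to -0.08) and -0.50 (-0.94 to -0.05), within 1.5-fold. Lss and Nsdhl, with 29 and 23 UMIs in the vehicle library, were at -0.13 (-0.73 to 0.51) and -0.28 (-0.96 to 0.46), and Ebp was at -0.01 (-0.40 to 0.41). Tm7sf2, a sterol reductase, had 4 and 14 UMIs and was not compared. Over the 17 enzymes of both steps, the summed level was 1051 CPM (1004 to 1100) under vehicle and 675 CPM (657 to 694) under teriparatide, a log2 ratio of -0.64 (-0.72 to -0.56).

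Of the regulators, Insig1 showed the largest difference among the 26 genes compared in the COP-like cells. It had 319 UMIs in 64 vehicle cells and 623 UMIs in 251 teriparatide cells, or 178 CPM (159 to 199) and 81.5 CPM (75.2 to 88.2), a log2 ratio of -1.13 (-1.32 to -0.93). A median cell held 123 and 38.2 CPM of it. Srebf2, which encodes the SREBP that favors sterol synthesis, stood at 56.9 CPM (46.4 to 69.1) and 34.3 CPM (30.2 to 38.7), a log2 ratio of -0.73 (-1.07 to -0.39). Srebf1 had a log2 ratio of -0.29 (-0.46 to -0.12), close to that of the median gene, and Stard4 was the single gene above 1, at 0.14 (-0.30 to 0.60). Insig1 and Idi1 were the 2 genes, of the 14, that stayed at least 1.5-fold lower in each of the 16 other ways in which the data were processed.

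Scd1 and Scd2, the stearoyl-CoA desaturases, lie near each other on chromosome 19 (44394455 to 44407879 and 44293674 to 44306864, GENCODE vM21 on GRCm38). Scd2 stood at 568 CPM (534 to 604) under vehicle and 356 CPM (343 to 369.96) under teriparatide, and Scd1 at 361 CPM (334 to 389.9) and 236 CPM (225 to 247), log2 ratios of -0.67 (-0.78 to -0.57) and -0.61 (-0.74 to -0.48). The desaturases are close paralogs, so that reads could be split between them in counting. Acly, which supplies acetyl-CoA from citrate, stood at 109.9 CPM (95.1 to 126) and 68.5 CPM (62.8 to 74.7), a log2 ratio of -0.68 (-0.92 to -0.44). Fasn, the fatty acid synthase, was at -0.39 (-0.66 to -0.12) and Acaca, the acetyl-CoA carboxylase, at -0.40 (-0.88 to 0.10), both within 1.5-fold, and Elovl6 was at -0.13 (-0.38 to 0.13). Acss2, the acetyl-CoA synthetase, had 10 and 34 UMIs and was not compared. The 7 enzymes together stood at 1242 CPM (1191 to 1295) and 829 CPM (809 to 849.6), a log2 ratio of -0.58 (-0.65 to -0.51), just within 1.5-fold. In this class 3 of the 6 fatty acid enzymes compared were at least 1.5-fold lower, as were 9 of the 16 sterol enzymes. The share of all genes was 17.4%, and a difference between these groups of enzymes was not tested.

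**Figure D2:**
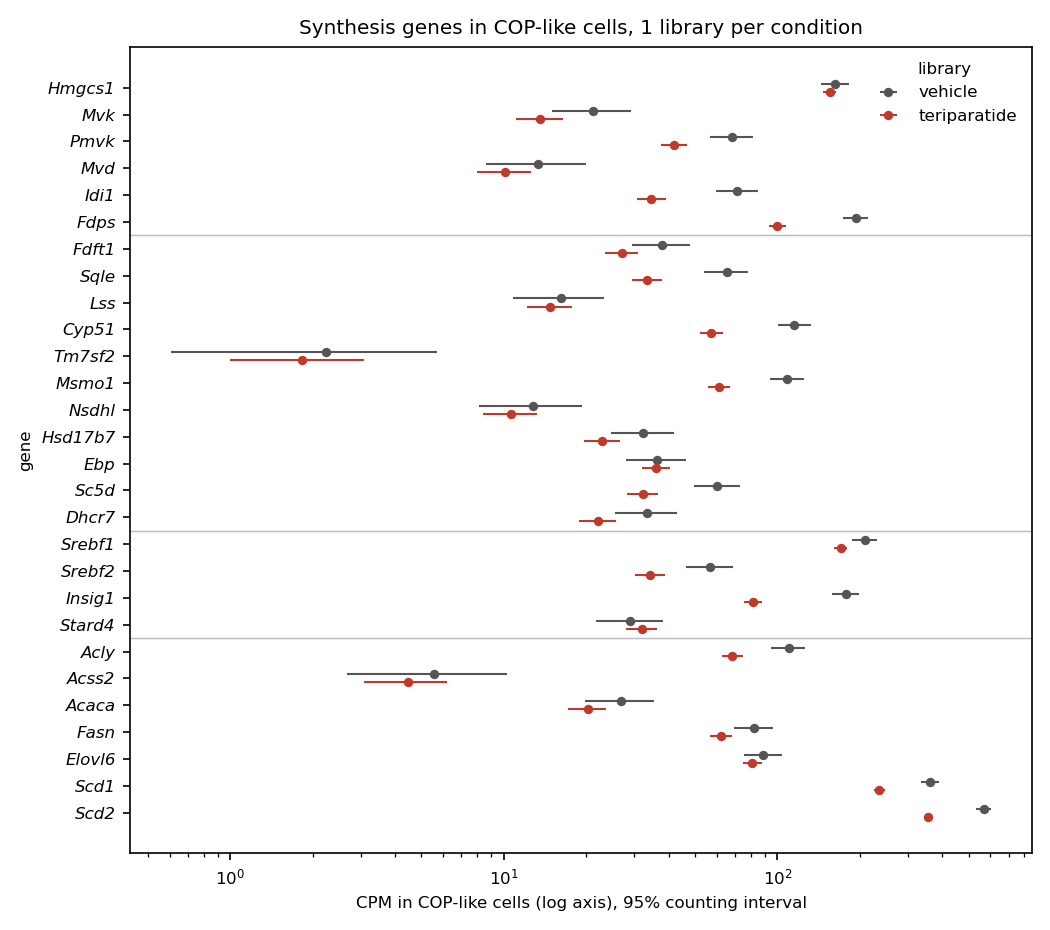
CPM of each gene in COP-like cells of the vehicle (gray) and teriparatide library (red) on a log axis, with exact 95% Poisson intervals (counting error only); horizontal lines separate the roles. The red points lie to the left of the gray points for most genes, with the largest gap at Insig1 (178 and 81.5 CPM), whereas Hmgcs1, Ebp and Stard4 nearly coincide.

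The difference was also present in the typical COP-like cell and in parts of the class. The 17 sterol enzymes summed to a median of 609 CPM per cell in the vehicle library, with quartiles of 395 and 1211, and to 305 CPM in the teriparatide library, with quartiles of 195 and 559.8. A few cells carried much of the sum, as 33.8% of the sterol enzyme UMIs of the vehicle COP-like cells came from 5 of 64 cells and 18.1% of those of the teriparatide library from 5 of 251 cells. Without the 5 highest cells of each library the log2 ratio was -0.44 for the sterol and -0.47 for the fatty acid enzymes, both within 1.5-fold. This left out 5 of 64 vehicle but 5 of 251 teriparatide cells, an unequal share that by itself lowers the vehicle level more. In cells with columnar chondrocyte markers (Chad, Stc2 and Matn3), 40 under vehicle and 177 under teriparatide, the sterol enzymes stood at 1046 and 675 CPM and the fatty acid enzymes at 1342 and 819.7 CPM, log2 ratios of -0.63 (-0.72 to -0.54) and -0.71 (-0.79 to -0.63). In the resting-marker part, 10 and 48 cells, the sterol enzymes stood at 772 and 293 CPM. The fatty acid enzymes stood at 963 and 672 CPM, and the log2 ratios were -1.40 (-1.68 to -1.12) and -0.52 (-0.75 to -0.28). In the vehicle library 1 of these 10 cells reached 3557 CPM, and the median of the 10 was 384 CPM, against 238 CPM in the teriparatide library. The remaining 7 and 5 COP-like cells went the other way for the sterol enzymes, with 514 and 1234 CPM and medians of 492 and 635 CPM. Of the 5 teriparatide cells, 1 reached 4659 CPM. Srebf1 was unevenly spread over these parts, with 623 and 458 CPM in the resting-marker cells but 182 and 119.9 CPM in the columnar-marker cells.

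COP-like cells with at least 2 of 6 mitotic markers numbered 7 under vehicle and 21 under teriparatide and held 1714 and 1161 CPM of the sterol enzymes, against 954 and 619 CPM in the non-mitotic COP-like cells. Among the latter the log2 ratio between the libraries was -0.62 (-0.71 to -0.54). Mitotic cells were 10.9% of the COP-like class under vehicle and 8.37% in the teriparatide library. A few mitotic cells carried these sums, since the 2 highest held 64.0% of the sterol enzyme UMIs of the 7 vehicle cells (4068 and 3373 CPM) and 48.9% of those of the 21 teriparatide cells (5602 and 5254 CPM), and the medians were 997 and 415 CPM. In the 5 and 16 male mitotic cells the sterol enzymes stood at 1481 and 1384 CPM, a log2 ratio of -0.10 (-0.31 to 0.12), with medians of 997 and 494 CPM. Without the 2 highest male cells of each library, a choice made after the data were seen, the levels were 758 and 753 CPM. This left out 2 of 5 vehicle but 2 of 16 teriparatide cells, so that the libraries were not trimmed alike. The ratio within mitotic cells thus depended on single cells and on the measure. Among all male COP-like cells, 52 and 221, the log2 ratio of the sterol enzymes was -0.61 (-0.69 to -0.52) and that of the fatty acid enzymes -0.60 (-0.68 to -0.53). Among the 9 and 20 female cells the values were -0.72 (-0.90 to -0.53) and -0.50 (-0.69 to -0.30). Hmgcs1 was at 0.03 in the male cells and at -0.80 (-1.30 to -0.30) in the female cells.

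**Figure D3:**
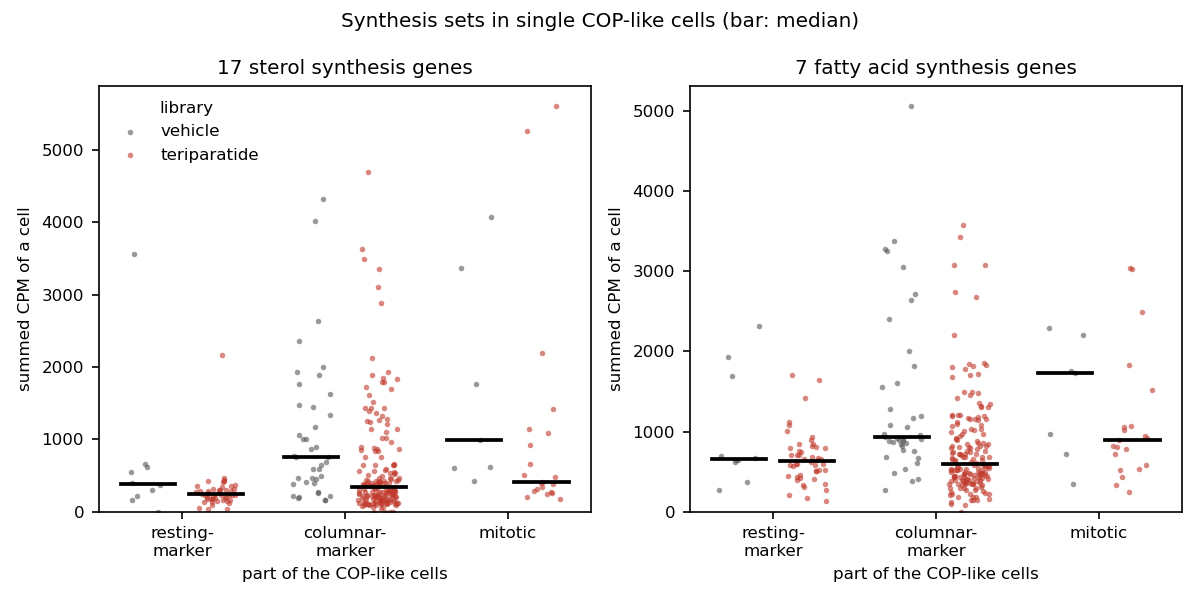
Summed CPM of the 17 sterol enzymes (left) and the 7 fatty acid enzymes (right) in each COP-like cell of the resting-marker, columnar-marker and mitotic parts, for the vehicle (gray) and teriparatide library (red), with a bar at the median. The sterol median is higher in the vehicle library in each part shown (384 and 238 CPM, 754 and 347 CPM, and 997 and 415 CPM), and the highest cells, both of the teriparatide library, reach 4687 CPM among the columnar-marker and 5602 CPM among the mitotic cells. The remaining 7 and 5 COP-like cells, with medians of 492 and 635 CPM, are not shown.

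Within the COP-like class the sterol enzymes varied together from cell to cell. The mevalonate enzymes and the squalene and sterol enzymes had a Spearman correlation of 0.83 over the 64 vehicle cells and 0.60 over the 251 teriparatide cells. Insig1 and the sum of the sterol enzymes had 0.63 and 0.54, and the sterol and fatty acid sums 0.50 and 0.50. Srebf1 followed the fatty acid enzymes only weakly, at 0.17 and 0.13. All of these values share the total of the cell, with which the sterol sum itself had a correlation of 0.21 and 0.38.

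In the other mesenchymal classes fewer genes could be compared. In the MALP-like cells 15 genes had at least 50 UMIs, and 6 of them were at least 1.5-fold lower in the teriparatide library, where 10.5% of all genes were, while 0 were higher, where 7.87% were. They were Sc5d (45 and 12 UMIs), Scd1 (63 and 19), Fdps (62 and 20), Srebf2 (55 and 19), Pmvk (69 and 24) and Cyp51 (39 and 16), with log2 ratios from -1.24 to -0.62. The sterol enzymes stood at 400.0 CPM (372 to 429.7) and 315 CPM (284 to 349), a log2 ratio of -0.34 (-0.53 to -0.16). Fatty acid enzymes stood at 193 CPM (173 to 213) and 209 CPM (183 to 236), a log2 ratio of 0.12 (-0.12 to 0.35), and Scd2, at 0.44 (0.04 to 0.83), differed in the opposite direction to Scd1. Male cells were 47.8% of this class under vehicle and 89.2% in the teriparatide library. Among male cells alone 1 gene was past 1.5-fold, but the number compared there and the share of all genes are not given here. In these male cells Scd1 turned to 0.34 with 12 and 17 UMIs, and the log2 ratio of the sterol enzymes was -0.48 (-0.70 to -0.26).

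In the OB-like cells 3 of 15 genes were at least 1.5-fold lower in the teriparatide library, where 12.4% of all genes were, and 0 were higher, where 6.92% were. Fdps showed the largest difference, at 70.8 CPM (60.3 to 82.4) and 24.3 CPM (18.6 to 31.0), a log2 ratio of -1.54 (-1.99 to -1.12). Of its vehicle UMIs 45.1% came from 5 of 114 cells. Cyp51 was at -1.06 (-1.76 to -0.38), and Acaca at -0.61 (-1.41 to 0.18). The desaturases hardly differed, with Scd2 at 156 CPM (140.5 to 173) and 141 CPM (127 to 157) and Scd1 at 89.3 CPM (77.5 to 102) and 88.2 CPM (77.2 to 100.4). The sterol enzymes had a log2 ratio of -0.46 (-0.63 to -0.29) and the fatty acid enzymes of -0.07 (-0.22 to 0.07). Male cells were 38.0% and 90.9% of this class, and among them alone the values were -0.30 (-0.56 to -0.05) and 0.22 (-0.02 to 0.46). Among them 1 gene was past 1.5-fold, but the number compared there and the share of all genes are not given here. In the preOB-like cells only Ebp and Scd2 had enough UMIs, and neither was past 1.5-fold, where 21.3% of all genes were lower and 9.07% higher. Scd2 stood at 122 CPM (85.7 to 169) and 182 CPM (151 to 217), a log2 ratio of 0.57 (0.03 to 1.15). Differences between classes in these ratios were not tested.

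**Figure D4:**
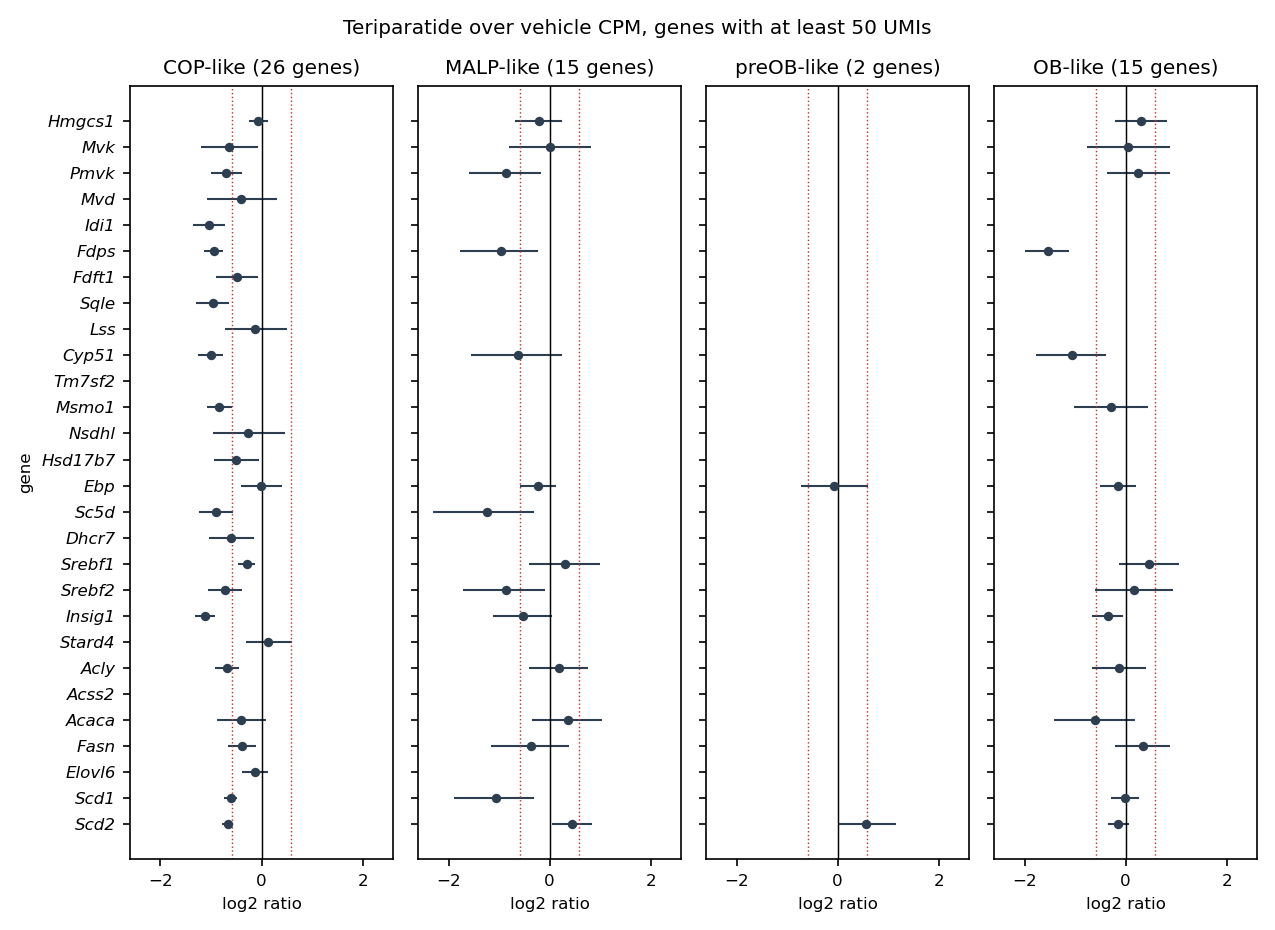
Log2 ratio of teriparatide over vehicle CPM of each gene with at least 50 UMIs in each mesenchymal class, with exact conditional 95% intervals (counting error only); the solid line marks no difference and the dotted lines 1.5-fold. In the COP-like panel 25 of 26 points lie left of the solid line, where the ratio of 67.8% of all genes was below 1. The OB-like and MALP-like panels show wider intervals and points on both sides.

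Blood cells that passed the sort gave a further view of the same genes. Their sterol enzyme level was 345 CPM (287 to 411) and 322 CPM (305 to 340) in the neutrophil-like, 163.5 CPM (129.7 to 204) and 174 CPM (156 to 194) in the erythroid-like and 358 CPM (320 to 399) in the monocyte/macrophage-like cells of the teriparatide library. In the 20 granulocyte progenitor-like cells of the teriparatide library it was 595 CPM (537 to 659), with Fdps at 184 CPM (152 to 221). The fatty acid enzymes were lower in these cells, at 82.1 and 76.6 CPM in the neutrophil-like and 32.7 and 29.8 CPM in the erythroid-like cells. Among the erythroid-like cells the mitotic ones held 222 and 266 CPM of the sterol enzymes, against 7.52 and 19.9 CPM in the others. The neutrophil-like and erythroid-like levels of the sterol enzymes overlapped between the libraries in their intervals. Mitotic cells were 71.1% and 48.8% of the erythroid-like and 30.6% and 22.1% of the neutrophil-like cells. These levels thus mix mitotic and other cells in different shares, and the part of this mix was not tested.

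The other genes of lipid handling were followed in the COP-like cells with 6 further lists, to be read against the 17.4% of all genes that were lower and the 8.02% that were higher there. Of 7 regulators of SREBP (among them Scap, the escort of SREBP, and the proteases Mbtps1 and Mbtps2) and of 8 other sterol and isoprenoid enzymes with enough UMIs, none was past 1.5-fold in either direction. In the list of sterol uptake, transport and efflux, 2 of 13 genes were higher in the teriparatide library and 1 was lower. Abca1, a pump that exports cholesterol, had 7 UMIs under vehicle and 166 under teriparatide, or 3.91 and 21.7 CPM, a log2 ratio of 2.48 (1.40 to 3.81). Mylip, a ligase that lowers lipoprotein receptors, stood at 26.8 and 46.2 CPM, a log2 ratio of 0.79 (0.35 to 1.25), and Lrp8, one such receptor, at 36.3 and 16.9 CPM, a log2 ratio of -1.10 (-1.54 to -0.65). In the list of other fatty acid synthesis genes, 4 of 16 were lower, a share near that of all genes, and 0 higher, including the desaturases Fads2 (-1.27) and Fads1 (-0.76) and the elongation reductase Hsd17b12 (-0.82). In the list of fatty acid oxidation 1 of 14 was lower, Acadvl (-0.80), and 0 were higher. In the list of glycerolipid synthesis and storage 3 of 11 were higher and 0 lower, namely Pnpla2, a triglyceride lipase with 6 and 65 UMIs (1.34, 0.15 to 2.84), the phosphatase Lpin1 (0.83) and the lipid droplet protein Plin3 (0.82). The medians of the 6 lists ran from -0.44 to 0.07, against -0.21 for all genes. In the MALP-like cells Abca1 was likewise higher, at 22.9 and 52.4 CPM, a log2 ratio of 1.19 (0.61 to 1.79), with Mylip at 0.82 and the lysosomal cholesterol transporter Npc1 at 1.11. In that class, where 10.5% of all genes were lower and 7.87% higher, 3 of 11 uptake genes were higher and 0 lower, 1 of 7 regulators of SREBP, 1 of 6 other sterol enzymes and 1 of 13 other fatty acid synthesis genes were lower, 1 of 14 oxidation genes was higher, and of 10 glycerolipid genes 1 was lower, Agpat1 at -0.91, and 1 higher, Pnpla2 at 0.61. In the OB-like cells 12.4% of all genes were lower and 6.92% higher. None of 10 uptake genes and none of 6 regulators of SREBP was past 1.5-fold there. Of 14 other fatty acid synthesis genes 2 were lower, Me1 at -1.15 (-1.72 to -0.59) and Fads1 at -0.87. Me1 supplies reducing power for lipid synthesis. Of 13 oxidation genes 1 was lower, Hadh at -0.85, as was 1 of 6 other sterol enzymes. Of 8 glycerolipid genes 1 was higher, the lipase Mgll at 0.92. In the preOB-like cells from 1 to 5 genes of each list could be compared.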

How the data were processed

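Droplet single-cell libraries were sequenced and processed by the authors with Cell Ranger 2.1.0, per the submitters' processing notes, against mm10. The deposited files hold raw UMI counts per gene and cell; their header names software version 3.1.0, and the reads were not reprocessed. The vehicle and teriparatide tables held 1286 and 2142 barcodes with 10567335 and 26270041 UMIs. Cells with 200 to 6000 genes and at most 10% mitochondrial UMIs were kept, 549 and 1217; 55.8% and 40.2% of barcodes exceeded the mitochondrial limit. Doublets were not called, but cells meeting the markers of more than 1 mesenchymal class were set apart, as were cells high in Col10a1 and Ihh. The exception was cells that met both the preOB-like and the OB-like markers, which were kept as preOB-like. The median OB marker score of the preOB-like cells was 3.10 under vehicle and 3.42 under teriparatide, above the OB-like minimum of 3. Clusters made without the synthesis genes and the markers did not match the gates throughout. The cluster named preOB-like held 120 cells, of which 40 were gated as preOB-like, 25 as MALP-like and 37 were ungated. Of the OB-like cells, 31 fell in clusters named COP-like.

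Cells were gated by the mean over marker genes of log2(1 + UMIs per 10000), with minimums of 2 (COP-like and MALP-like), 3 (OB-like) and 1 (blood classes); preOB-like cells needed 500 CPM of Postn, Tnn and Aspn together and 3 of 5 markers. UMIs were summed per class and library and divided by the total of the class (CPM). Each library was a single sample, so no test was made. Intervals are exact Poisson for CPM, exact conditional binomial for ratios and exact Clopper-Pearson for shares of cells, at 95%. Only those of ratios were run on simulated counts. These counts were drawn from the same Poisson model without spread between cells, so the run cannot show how the intervals hold for real cells. Genes with at least 50 UMIs over both libraries, or over the classes compared, were used. All 28 genes are accounted for; those at least 1.5-fold apart are named, with up to 3 per further list. The genes and lists were chosen with earlier results of these data known. The alternatives were other mitochondrial limits, gates, scalings, weights of cells, thinning to 3000 UMIs, sex, mitotic cells, top cells, minimums and folds. Gene positions were taken from GENCODE vM21. Python 3.11.15, numpy 2.4.6, scipy 1.17.1, pandas 2.3.3, scikit-learn 1.9.0, leidenalg 0.10.2 and matplotlib 3.10.9 were used.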

Additional observations from a re-analysis of the deposited data

How the results depend on the processing

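No paired analysis was possible because each condition had 1 library. There was thus no replicate to leave out, and counting error was the only error available. Of the 164 summary values under alternatives, 114 moved little and 50 moved. Some of the summary values also changed sign, as given below, although none was counted as reversed. For the single genes past 1.5-fold in a class, 269 values moved little, 57 moved and 5 reversed. The cause of these changes was not tested. Genes within 1.5-fold were not part of this count. For the counts of genes past 1.5-fold below, the number of genes compared and the share of all genes can change with the setting. Neither is given here, so that the count of one setting cannot be read against that of another.

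In the COP-like cells the log2 ratio of the sterol enzymes (-0.64) was -0.43 with median ratio scaling, -0.47 with a trimmed total, -0.76 as the mean of single cells, -0.75 in thinned cells, -0.72 in female cells, -0.44 without the 5 top cells, and, in parts chosen after the data were seen, -1.40 in resting-marker and -0.56 in mitotic cells. That of the fatty acid enzymes (-0.58) was -0.37, -0.42, -0.50 in female cells, -0.47 without the 5 top cells, -0.71 in columnar-marker and -0.30 in mitotic cells. The 5 top cells of each library were a larger share of the vehicle than of the teriparatide cells. The count of genes past 1.5-fold (14) was 7 with either scaling, in female cells and in resting-marker cells, 6 in mitotic cells, 4 in thinned cells and 3 at a fold of 2.

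In the MALP-like cells the fatty acid enzymes (0.12) were at -0.17 as the mean of single cells and 0.39 in female cells, and the count (6) was 0 in thinned cells, 1 in male cells, and 2 in female cells and at a fold of 2. In the OB-like cells the sterol enzymes (-0.46) were at -1.08 in thinned cells, the fatty acid enzymes (-0.07) at -0.25 as the mean of single cells, -0.42 in thinned, 0.22 in male and -0.83 in female cells, and the count (3) was 0 in thinned cells, 1 in male cells, 8 with a minimum of 20 UMIs and 11 with no minimum. In the preOB-like cells the sterol enzymes (0.18) were at -0.35 with clusters in place of the gate and -0.34 in female cells, the fatty acid enzymes (0.10) at 0.70 in male and -0.58 in female cells, and the count (0) was 1 with a mitochondrial limit of 20%, with no limit, with the stricter gate, clusters, either scaling, single-cell means and male cells, 3 with a minimum of 20 UMIs and 15 with no minimum.

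Only single genes past 1.5-fold in a class were followed here. Those that reversed were Cyp51 in female OB-like cells (0.25), Pmvk in mitotic COP-like cells (0.50) and Srebf2 in thinned COP-like cells (0.26). In the MALP-like cells they were Sc5d in female (0.57) and Scd1 in male cells (0.34).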

Other observations

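A small group of cells high in Col10a1 and Ihh, markers of hypertrophic chondrocytes, was kept out of the COP-like class and held 7 vehicle and 27 teriparatide cells. The sterol enzymes stood at 1800 CPM (1538 to 2093) and 778 CPM (717 to 844) in them, and the fatty acid enzymes at 643 CPM (490.4 to 827) and 243 CPM (209 to 281). Insig1 stood at 289 CPM (191 to 421) and 119 CPM (95.6 to 146), Idi1 at 193 CPM (114 to 305) and 80.6 CPM (61.6 to 104), and Fdps at 279 CPM (182 to 408) and 81.9 CPM (62.8 to 105). Hmgcs1, which hardly differed in the COP-like cells, stood at 279 CPM (182 to 408) and 153 CPM (127 to 184). Srebf1, at 209 and 170.2 CPM in the COP-like cells, stood at 21.4 CPM (2.59 to 77.4) and 26.4 CPM (16.1 to 40.8) here. The median cell of this group had a depth of 9238 UMIs under vehicle and 29085 under teriparatide, and the part of this gap in the values was not tested.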
